A study of Rattus norvegicus with 10 samples.

Results

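The genes described here encode the proteasome, and they were taken as the genes whose platform symbol begins with Psm, a letter from a to g and a digit. Each gene was represented by 1 probe set, the brightest over the 10 arrays among those paired with a single gene. This gave 46 of the 14217 genes that have such a probe set, and all 46 symbols are the same in RefSeq. Of these, 44 have a known role in the proteasome, while Psmc3ip and Psme3ip1 match the symbol pattern but are not subunits. Liver RNA was measured on 1 Affymetrix rat array per animal in 5 rats fed an iron-deficient diet of about 3 ppm iron and in 5 pair-fed rats given the control diet of 48 ppm iron. All rats were male Sprague-Dawley rats, kept on their diet for 3 days and taken 1.5 h after feeding. The sample labels give an age of 5 weeks, and the paper's abstract gives a younger age for the rats put on the diet. The source field of the control samples names the iron-deficient diet, whereas their title and treatment name the control diet, and they were treated as pair-fed controls by the latter.

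The proteasome is the large protease that degrades proteins tagged with ubiquitin in the cytosol and nucleus. Its barrel-shaped core consists of outer rings of alpha subunits, which form the gate, and inner rings of beta subunits, some of which carry the active sites. A regulatory particle of ATPases and non-ATPase subunits binds at the end of the barrel, recognises ubiquitin chains, removes them and unfolds the substrate. In the liver this system turns over metabolic enzymes and regulatory proteins, among them the iron regulatory protein Ireb2, whose degradation depends on the ubiquitin ligase subunit Fbxl5 when iron is sufficient. Inflammatory signals such as interferon gamma induce alternative catalytic subunits, which form the immunoproteasome and favour peptides for antigen presentation.

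The symbol rule found 7 alpha subunits, 6 constitutive beta subunits, 3 immunoproteasome subunits, 6 ATPases of the regulatory base, 11 non-ATPase subunits of the regulatory particle, 4 activators and inhibitors and 7 assembly chaperones. Psmb6 and Psme3 were measured only by probe sets shared with other genes and have no value here. The array median of the log2 RMA signal, the scale of every level below, lay between 6.19 and 6.22. The hepatocyte markers were bright, with Alb, the main plasma protein made by the liver, at a mean of 15.35, and none of the 7 passed the rank products. Iron-deficient replicate 1 stood apart: its mean correlation with the other arrays was 0.9915, against 0.9935 to 0.9941 for the rest, and its log2 difference between the 3' and 5' control probe sets was highest for GAPDH (0.36, against -0.05 to 0.11) and beta-actin (1.74, against 1.08 to 1.33). The share of cell types and the RNA level per cell cannot be told apart in whole liver.

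Promoter sequences are shown for the member with the clearest difference between the diets, Psmg3, and for the immunoproteasome pair whose levels followed each other most closely, Psmb8 and Psmb9. Each is the 250 bases before the annotated start in RefSeq on the rat assembly GRCr8, 5′ to 3′ along the gene: Psmg3 at chr12:19923038-19923287 on the plus strand, Psmb8 at chr20:4657032-4657281 on the minus strand and Psmb9 at chr20:4668750-4668999 on the plus strand. Capitals mark matches, on either strand, to the CCAAT box (CCAAT), the GC box (GGGCGG) or the gamma-activated site core (TTCNNNGAA). In Psmg3 the capitals are a CCAAT box and a GC box, both on the opposite strand. In Psmb8 they are a gamma-activated site core and a CCAAT box on the opposite strand. In Psmb9 both are GC boxes.
Psmg3: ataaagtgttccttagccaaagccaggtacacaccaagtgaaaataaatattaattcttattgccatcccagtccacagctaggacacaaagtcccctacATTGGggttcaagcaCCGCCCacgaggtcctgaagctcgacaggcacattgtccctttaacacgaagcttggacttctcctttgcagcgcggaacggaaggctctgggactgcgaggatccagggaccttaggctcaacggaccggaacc
Psmb8: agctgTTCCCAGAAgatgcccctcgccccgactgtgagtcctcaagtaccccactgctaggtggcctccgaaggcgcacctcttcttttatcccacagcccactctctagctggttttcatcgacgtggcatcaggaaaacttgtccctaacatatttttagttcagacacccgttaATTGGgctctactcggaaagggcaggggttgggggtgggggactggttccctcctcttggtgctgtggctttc
Psmb9: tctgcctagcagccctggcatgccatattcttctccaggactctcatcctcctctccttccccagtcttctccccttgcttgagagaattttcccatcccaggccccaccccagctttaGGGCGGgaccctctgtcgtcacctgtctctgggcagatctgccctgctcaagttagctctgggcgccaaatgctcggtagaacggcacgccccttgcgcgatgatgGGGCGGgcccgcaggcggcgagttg
Across the 42 members with a promoter in the RefSeq table, a GC box was found in 29, where 32.4% of all 27457 promoters hold it, and a CCAAT box in 21, against 34.3%. The 42 include Psmc3ip and Psme3ip1, which are not subunits. Psmc3ip is counted among the genes with a GC box, and both are counted among those with a CCAAT box. The antioxidant response element core (TGACNNNGC), searched because Nfe2l1 and Nfe2l2 act through that element, was found in 6 members (Psma3, Psmb2, Psmb5, Psmd1, Psme4 and Psmd9), against 10.2% of all promoters. The interferon-stimulated response element core (GAAANNGAA) was found in 7 members (Psma4, Psmb2, Psmb3, Psmb10, Psmd7, Psmd11 and Psme2), against 7.99%. The gamma-activated site core was found in 4 (Psmb8, Psmc6, Psmd3 and Psmd7), against 7.52%. These are matches of letters and were not tested as binding sites.

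Psmg3, a chaperone that helps to assemble the alpha ring, was lower in the iron-deficient liver, at 57.8% of the pair-fed level. No further probe set was paired with Psmg3 alone. Most of the other proteasome genes, the subunits among them, had slightly lower means, and none of these genes passed a test over all probe sets. By the rank products, the method named in the study's methods, which ranks differences over the 25 array pairs that join both diets, 1 of the 44 proteasome genes passed in the lower direction at a false discovery rate under 0.05 and 0 passed in the higher direction. Over all genes these shares were 0.76% and 0.324%. In limma, which weighs the spread between rats, no probe set passed an adjusted p of 0.05, the lowest being 0.397, while 998 probe sets were higher and 1170 lower at an unadjusted p under 0.05.

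Of the 44 proteasome genes, 37 had a lower mean in the iron-deficient group and 7 a higher mean, while 52.5% of all genes had a lower mean. The 44 genes were read on the same arrays and are not separate readings. Iron-deficient replicate 1 held the lowest value of 23 of them and pair-fed replicate 5 the highest value of 21. The shares over all genes include dim genes and were not matched for signal. The counts against these shares are therefore descriptions and not tests. The median log2 fold change, iron-deficient minus pair-fed, was -0.11, against -0.01 over all genes. At an unadjusted limma p under 0.05, 13 members were lower and 0 higher, where 4.94% of all genes were lower and 2.9% higher. In 5 members (Psmg3, Psma6, Psmc2, Psmc6 and Psmd11) all iron-deficient values lay below all pair-fed values, and in 0 members above them; over all genes this held for 1.18% and 0.443%. The adjusted p of limma over the 44 members ranged from 0.397 to 0.997. Without pair-fed replicate 5, 6 members were lower at an unadjusted p under 0.05, namely Psma1, Psmc6, Psmd6, Psmd11, Psmd14 and Psmg3, and 8 were without pair-fed replicate 2. The plot of fold changes shows the core, the chaperones and most of the regulatory particle left of zero, many with intervals that include it, and the immunoproteasome right of zero with wide intervals.

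**Figure D1:**
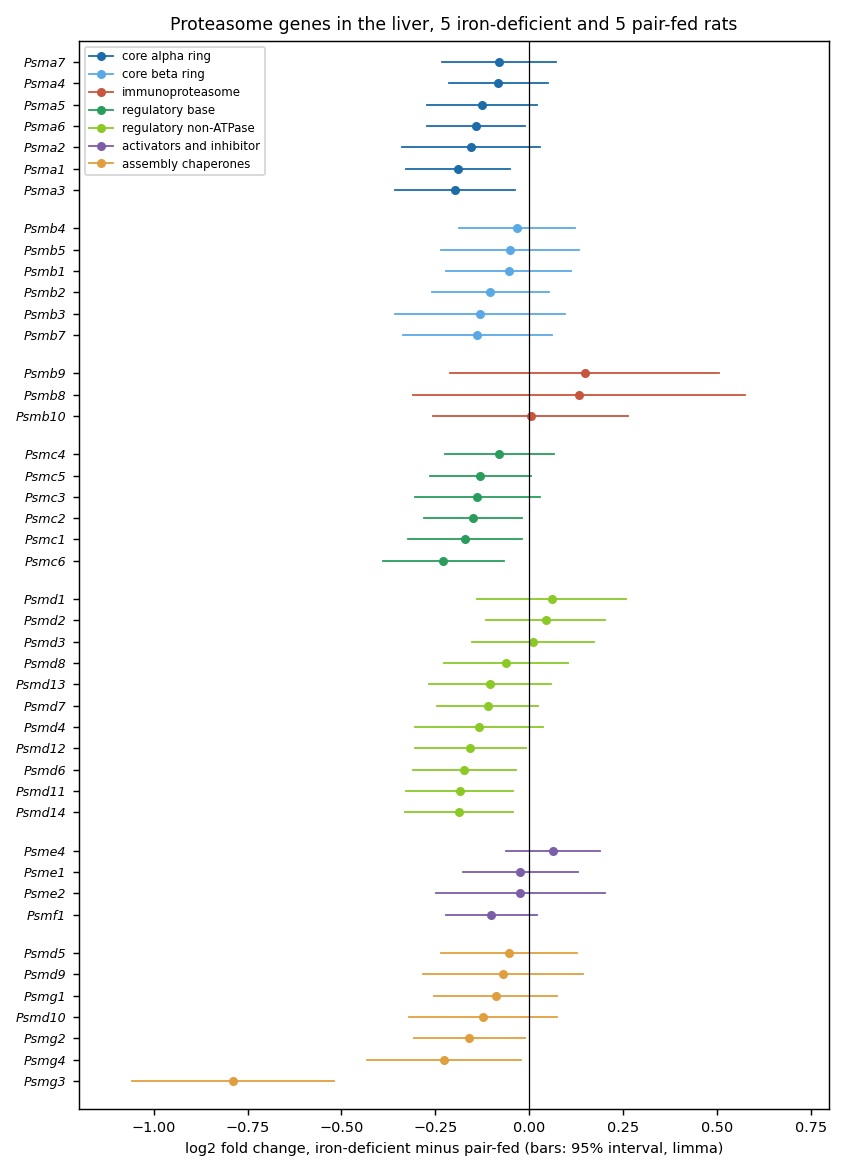
Log2 fold change (iron-deficient minus pair-fed, horizontal axis) of the 44 proteasome genes, ordered within their role groups, with points for the estimate and bars for the 95% interval of limma. Psmg3 lies at -0.79, and the other members lie between -0.23 and 0.15.

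The assembly chaperones guide the subunits into the core and the base and are not part of the finished protease. All 7 had a lower mean in the iron-deficient group, with a median log2 fold change of -0.12, and their adjusted p ranged from 0.397 to 0.926. Psmg3, which acts with Psmg4, had log2 signals of 8.02, 8.14, 7.89, 8.25 and 8.16 in iron-deficient replicates 1 to 5, and of 9.06, 8.37, 9.00, 8.98 and 8.99 in pair-fed replicates 1 to 5. The groups did not overlap, and pair-fed replicate 2 lay apart from the other pair-fed rats, close to the iron-deficient range. The mean was 8.09 ± 0.14 (SD, n = 5) against 8.88 ± 0.28 (SD, n = 5), and the log2 fold change was -0.79 (SE 0.124, 95% interval -1.06 to -0.52). Psmg3 passed the rank products with a false discovery rate of 0.000526 and was rank 14 of 14217 genes in the lower direction. Its unadjusted limma p, 2.97e-05, was the lowest of all genes with a probe set of their own, but its adjusted p of 0.397 missed the threshold. The exact permutation p (2-sided) was 0.00794, the smallest that 5 against 5 arrays can give. Any gene whose groups do not overlap has this p, so it adds nothing to that description. With each array left out in turn, the log2 fold change ranged from -0.92 (without pair-fed replicate 2) to -0.74, and the gene passed the rank products each time.

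The partner of Psmg3, Psmg4, had log2 signals of 9.41, 9.99, 9.80, 9.67 and 9.86 in the iron-deficient rats and of 9.97, 10.01, 9.89, 9.99 and 10.01 in the pair-fed rats, in replicate order. Iron-deficient replicate 1 was lowest and replicate 2 lay within the pair-fed range, so that the groups overlapped. On the log2 scale the fold change was -0.23 (SE 0.0947), with an unadjusted limma p of 0.0333 and an adjusted p of 0.676. Without iron-deficient replicate 1 it was -0.14.

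Psmg2, which acts with Psmg1 at an early step of alpha ring assembly, had log2 signals of 8.70, 8.90, 8.81, 8.93 and 8.82 in the iron-deficient rats and of 8.99, 9.04, 8.90, 8.90 and 9.13 in the pair-fed rats. Iron-deficient replicate 4 lay within the pair-fed range. This gave a log2 fold change of -0.16 (SE 0.0683), with an adjusted limma p of 0.690. The fold changes of the other chaperones were smaller: -0.12 for Psmd10, -0.07 for Psmd9 and -0.05 for Psmd5, which escort the ATPases of the base, and -0.09 for Psmg1.

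**Figure D2:**
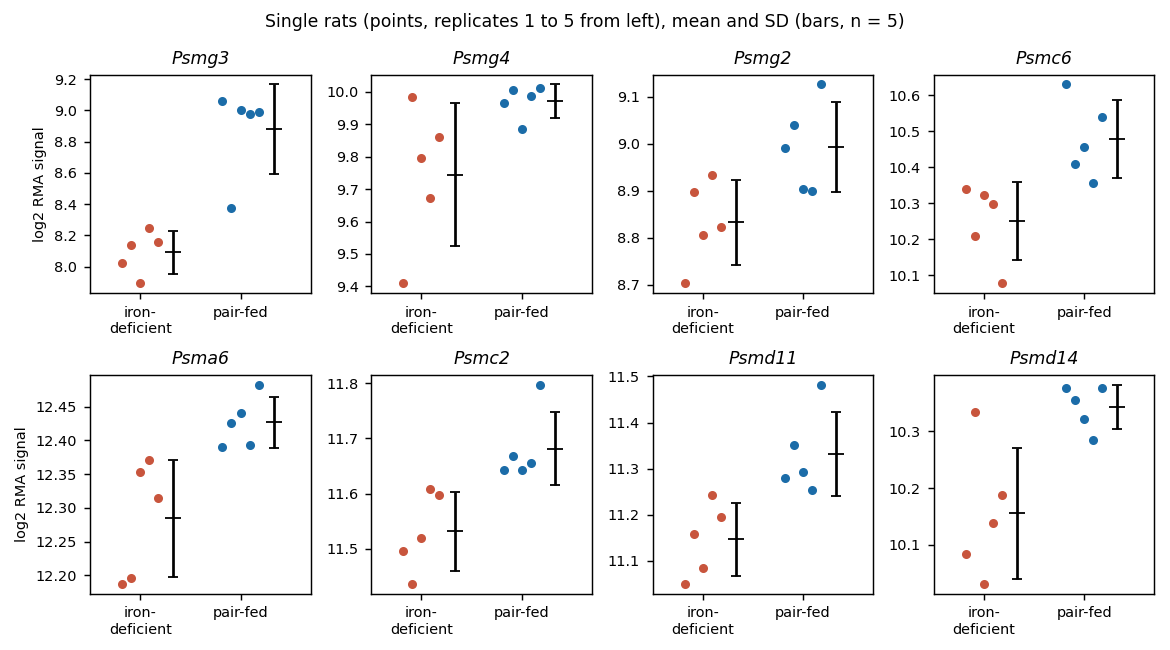
Log2 RMA signal (vertical axes, each with its own range) of 8 members in single rats, iron-deficient on the left and pair-fed on the right of each panel, with black bars for the mean and SD (n = 5). In Psmg3, Psmc6, Psma6, Psmc2 and Psmd11 the groups do not overlap, and for Psmg3 pair-fed replicate 2 (8.37) lies below the other pair-fed rats.

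The alpha subunits form the outer rings of the core and control the entry of substrates. All 7 had a lower mean in the iron-deficient group, from -0.20 to -0.08 on the log2 scale with a median of -0.14, and their adjusted p ranged from 0.623 to 0.845. Psma6 had log2 signals of 12.19, 12.20, 12.35, 12.37 and 12.32 in the iron-deficient rats and of 12.39, 12.43, 12.44, 12.39 and 12.48 in the pair-fed rats. The groups did not overlap, although iron-deficient replicate 4 came close to the lowest pair-fed rats. The mean was 12.28 ± 0.09 against 12.43 ± 0.04 (SD, n = 5 each), a log2 fold change of -0.14 (SE 0.0600) with an adjusted limma p of 0.681.

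Psma1, another alpha subunit, had log2 signals of 10.86, 10.87, 10.81, 10.99 and 10.89 in the iron-deficient rats and of 11.12, 11.06, 10.98, 10.99 and 11.20 in the pair-fed rats. Iron-deficient replicate 4 lay above pair-fed replicate 3, and the other iron-deficient rats lay below the pair-fed range. The fold change on the log2 scale was -0.19 (SE 0.0644), with an unadjusted limma p of 0.0118 and an adjusted p of 0.623. Psma3 had log2 signals of 9.46, 9.53, 9.63, 9.70 and 9.56 in the iron-deficient rats and of 9.67, 9.75, 9.90, 9.65 and 9.90 in the pair-fed rats. The groups overlapped through iron-deficient replicate 4, and the log2 fold change was -0.20 (SE 0.0738, adjusted limma p 0.662). A near-identical gene, Psma3l, may share this signal, so that the value of Psma3 is uncertain. The remaining alpha subunits had log2 fold changes of -0.15 (Psma2), -0.13 (Psma5), -0.08 (Psma4) and -0.08 (Psma7). In pair-fed replicate 5 all 7 alpha subunits reached their highest value of the 10 arrays.

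The beta subunits of the constitutive core include the catalytic Psmb5, Psmb6 and Psmb7, and of these Psmb5 carries the chymotrypsin-like and Psmb7 the trypsin-like site. All 6 measured beta subunits had a lower mean in the iron-deficient group, from -0.14 to -0.03 with a median of -0.08 on the log2 scale, and 0 of them had an unadjusted p under 0.05. Their adjusted p in limma ranged from 0.798 to 0.955. Psmb5 had log2 signals of 11.11, 11.54, 11.37, 11.39 and 11.60 in the iron-deficient rats and of 11.45, 11.47, 11.40, 11.46 and 11.48 in the pair-fed rats. The iron-deficient rats enclosed the pair-fed range, with replicate 1 lowest and replicate 5 highest. The log2 fold change of Psmb5 was -0.05 (SE 0.0845, adjusted limma p 0.932), and it was 0.02 without iron-deficient replicate 1.

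Psmb7 had log2 signals of 10.27, 10.71, 10.61, 10.67 and 10.83 in the iron-deficient rats and of 10.73, 10.76, 10.71, 10.78 and 10.80 in the pair-fed rats. Iron-deficient replicate 1 was again the lowest and replicate 5 the highest of the 10 arrays. In limma the log2 fold change was -0.14 (SE 0.0916, adjusted limma p 0.798), and it was -0.05 without iron-deficient replicate 1. For the structural beta subunits the log2 fold changes were -0.13 (Psmb3), -0.10 (Psmb2), -0.05 (Psmb1) and -0.03 (Psmb4). The median log2 fold change of the 6 beta subunits was -0.02 without iron-deficient replicate 1. That array, which stood apart in the control probe sets above, held the lowest value of all 6, and the part of RNA quality in this was not tested.

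**Figure D3:**
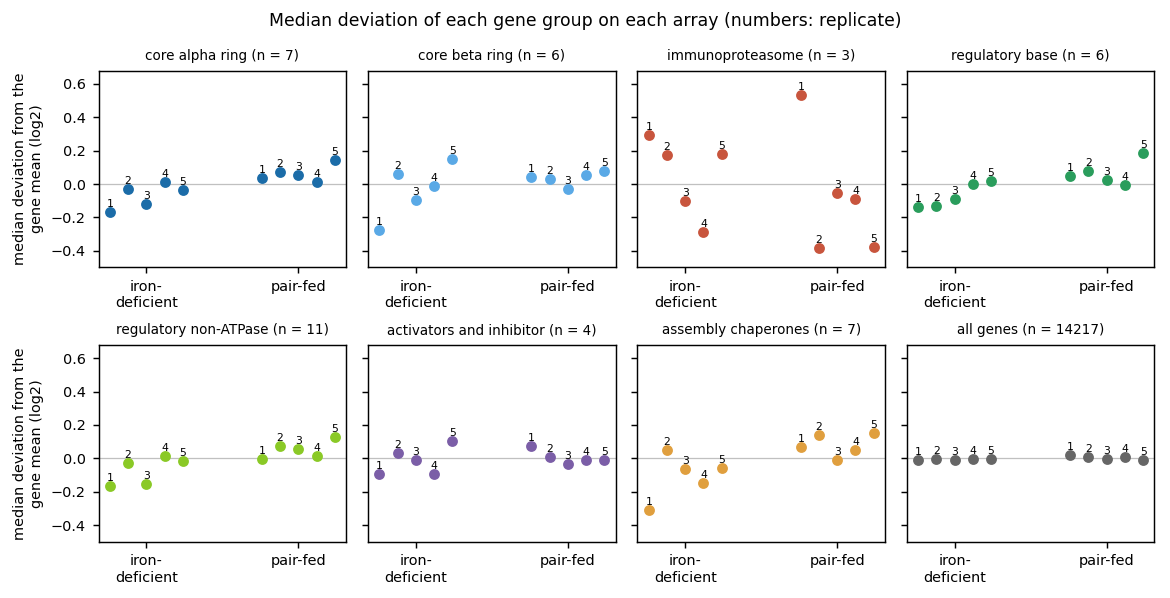
Median deviation from the gene mean (log2, vertical axis) of each role group and of all genes on each array, with points numbered by replicate. The core beta ring ranges from -0.28 in iron-deficient replicate 1 to 0.15 in replicate 5, and the immunoproteasome reaches 0.53 in pair-fed replicate 1.

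The beta subunits varied more between the iron-deficient rats than between the pair-fed rats. Their SD over the 5 iron-deficient rats was 0.130 to 0.242 on the log2 scale, against 0.032 to 0.087 over the 5 pair-fed rats, and it was larger in the iron-deficient group for 6 of 6 genes. A larger SD in the iron-deficient group was also common elsewhere, since it was found for 65.3% of all genes, with median SDs of 0.139 and 0.109, and for 31 of the 44 proteasome genes. Without iron-deficient replicate 1 it remained larger for 6 of 6 beta subunits, with a median SD of 0.102 against 0.042, and was larger for 27 of 44 proteasome genes and 56.1% of all genes. The difference in spread was not tested, and genes read on the same arrays are not separate readings of it. Single arrays often held the extremes: iron-deficient replicate 1 had the lowest value of 23 and pair-fed replicate 5 the highest value of 21 of the 44 proteasome genes.

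**Figure D4:**
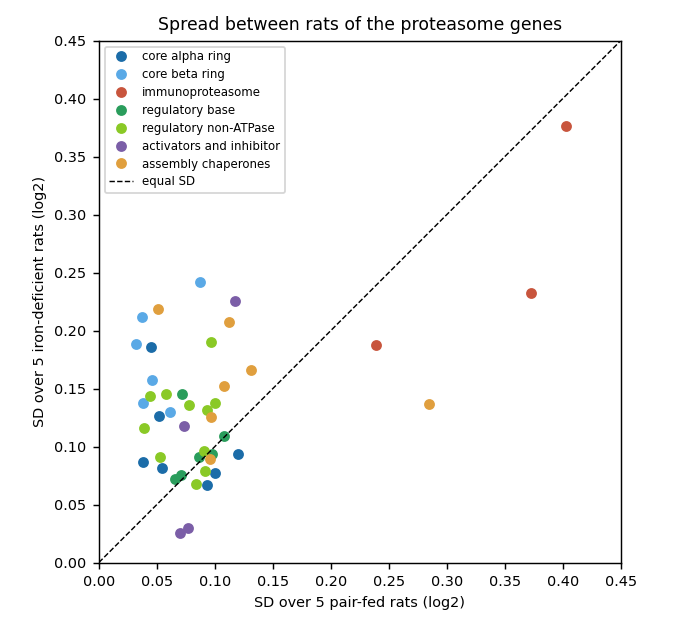
SD over the 5 pair-fed rats (horizontal axis) and over the 5 iron-deficient rats (vertical axis) of the log2 RMA signal for the 44 proteasome genes, coloured by role, with a dashed line at equal SD. The 6 core beta subunits lie above the line, and the 3 immunoproteasome subunits lie below it.

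The immunoproteasome subunits Psmb8, Psmb9 and Psmb10 take the places of Psmb5, Psmb6 and Psmb7. They varied more between rats of the same diet than between the diets: the log2 fold changes were 0.13, 0.15 and 0.00, and 0 of 3 had an unadjusted p under 0.05. Psmb8 had log2 signals of 9.90, 9.32, 9.16, 8.87 and 9.39 in the iron-deficient rats and of 9.80, 8.88, 9.34, 9.19 and 8.78 in the pair-fed rats. Replicate 1 was the highest in each diet, and the groups overlapped over most of their range. The mean was 9.33 ± 0.38 against 9.20 ± 0.40 (SD, n = 5 each), with an SE of 0.204 for the difference, a 95% interval from -0.31 to 0.58 and an adjusted limma p of 0.926.

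Psmb9 had log2 signals of 8.84, 8.72, 8.53, 8.26 and 8.76 in the iron-deficient rats and of 9.08, 8.17, 8.50, 8.46 and 8.17 in the pair-fed rats. Pair-fed replicate 1 was the highest of the 10 arrays, and the other pair-fed rats lay below every iron-deficient rat but replicate 4. The difference had an SE of 0.165, a 95% interval from -0.21 to 0.51 and an adjusted limma p of 0.884. Without pair-fed replicate 1 the log2 fold change of Psmb9 was 0.30 and its unadjusted p fell under 0.05, and for Psmb8 it was 0.28. The median of the 3 immunoproteasome genes ranged from 0.02 to 0.28 with each array left out. Without iron-deficient replicate 1 the log2 fold change of Psmb8 was -0.01.

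Psmb10 had log2 signals of 8.72, 9.01, 8.57, 8.73 and 8.98 in the iron-deficient rats and of 9.21, 8.80, 8.72, 8.61 and 8.66 in the pair-fed rats. The groups overlapped, with pair-fed replicate 1 again the highest. The SE was 0.120, the 95% interval from -0.26 to 0.26 and the adjusted limma p 0.997. The design does not separate a change of up to about these limits from none.

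Whether the catalytic subunits shifted against their constitutive counterparts was asked for 2 of the 3 pairs, since Psmb6 has no probe set of its own. The log2 signal of Psmb8 minus that of Psmb5 on the same array averaged -2.07 ± 0.50 in the iron-deficient and -2.26 ± 0.42 in the pair-fed rats (SD, n = 5 each), a difference of 0.18 (exact permutation p = 0.563). For Psmb10 minus Psmb7 the means were -1.81 ± 0.20 and -1.96 ± 0.26, a difference of 0.14 (exact permutation p = 0.349). Both differences were smaller than the spread between rats. The first turned to -0.03 without iron-deficient replicate 1. It was 0.33 without pair-fed replicate 1, 0.30 without iron-deficient replicate 4, 0.10 without pair-fed replicate 2 and 0.07 without pair-fed replicate 5. The second was 0.08 without iron-deficient replicate 1, 0.09 without pair-fed replicate 4 and 0.25 without pair-fed replicate 1.

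Psmb8 and Psmb9, both on chromosome 20, followed each other across the rats. Over the 10 rats Pearson's r was 0.933 (permutation p = 0.0002, adjusted 0.0012 over 6 relations of Psmb8) and Spearman's rho 0.891 (permutation p = 0.002, adjusted 0.012). The relation was as close within the diets, with an r of 0.932 after the diet means had been removed, and r was 0.937 without the 2 rats farthest from the median of Psmb8. Of the other 5 genes, Psmb10 had an r of 0.484 (permutation p = 0.165, adjusted 0.330) and Tap1, a peptide transporter gene of antigen processing, an r of 0.604 (permutation p = 0.0719, adjusted 0.216). For the activator genes r was 0.150 (Psme1, permutation p = 0.682) and 0.111 (Psme2, permutation p = 0.759), and for Psmb5 it was -0.416 (permutation p = 0.262). These 3 values rested on the 2 rats farthest from the median of Psmb8, iron-deficient replicate 1 and pair-fed replicate 1: without them r was 0.669 for Psme1, 0.673 for Psme2 and 0.346 for Psmb5, and it was 0.385 for Tap1 and 0.424 for Psmb10.

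The leukocyte markers were measured beside these genes, because immune cells express the immunoproteasome strongly. Of 16 markers 0 passed the rank products, 13 had a lower mean in the iron-deficient group and 3 a higher mean. Over all genes 52.5% had a lower mean. Several markers, such as Cd3d (means 4.39 iron-deficient and 4.41 pair-fed), lay below the array median. The smallest unadjusted p belonged to Cd68, a macrophage marker (log2 fold change -0.23, SE 0.122, adjusted limma p 0.742). Bright markers such as Clec4f (means 11.11 iron-deficient and 11.31 pair-fed) weigh most in a sum on the linear scale. The log2 of the summed signal of all 16 markers was 12.19 to 12.58 in the iron-deficient and 12.27 to 12.85 in the pair-fed rats. It was highest in pair-fed replicate 1, where Psmb9 and Psmb10 were highest too. In the iron-deficient group it was highest in replicate 1, where Psmb8 and Psmb9 were highest. Pair-fed replicate 4 had the next highest sum (12.59) but the lowest pair-fed value of Psmb10 (8.61). Iron-deficient replicate 2 had the lowest sum (12.19) but the highest iron-deficient value of Psmb10 (9.01). The part of leukocytes in the level of the immunoproteasome subunits was not tested.

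**Figure D5:**
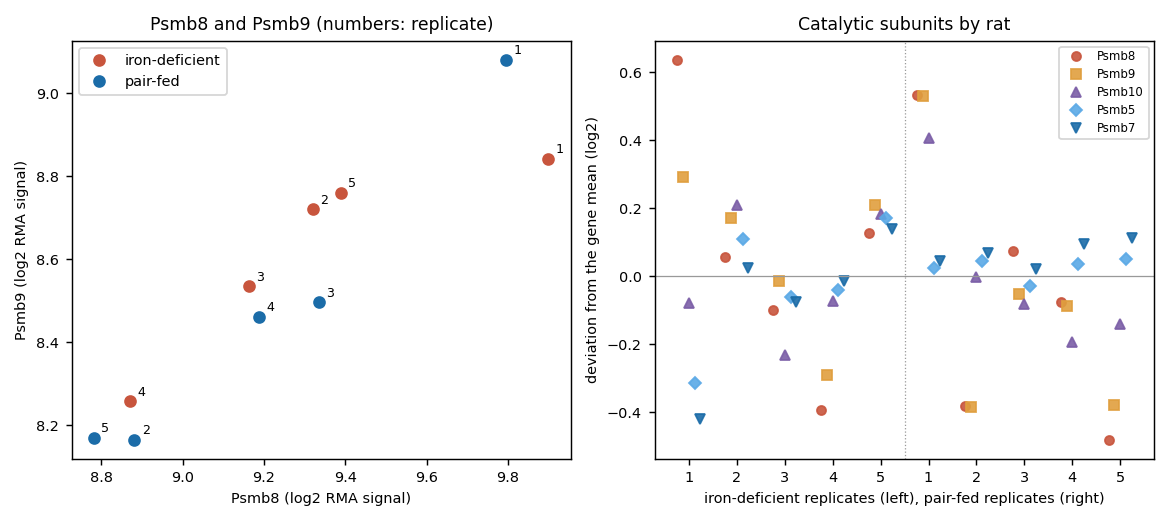
Left, log2 RMA signal of Psmb8 (horizontal) and Psmb9 (vertical) in each rat, numbered by replicate. Right, deviation of Psmb8, Psmb9, Psmb10, Psmb5 and Psmb7 from their gene means (log2) by rat; pair-fed replicate 1 is high for the 3 immunoproteasome subunits, and iron-deficient replicate 1 is low for Psmb5 and Psmb7 and high for Psmb8 and Psmb9.

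The 6 ATPases of the regulatory base, which unfold substrates and thread them into the core, all had a lower mean in the iron-deficient group. Their log2 fold changes ranged from -0.23 to -0.08 with a median of -0.14, and their adjusted p from 0.616 to 0.842. Psmc6 had log2 signals of 10.34, 10.21, 10.32, 10.30 and 10.08 in the iron-deficient rats and of 10.63, 10.41, 10.46, 10.36 and 10.54 in the pair-fed rats. The groups did not overlap. The mean was 10.25 ± 0.11 against 10.48 ± 0.11 (SD, n = 5 each), a log2 fold change of -0.23 (SE 0.0741) with an unadjusted limma p of 0.00907 and an adjusted p of 0.616. Both further probe sets of Psmc6 had overlapping groups, with log2 fold changes of -0.24 (SE 0.0907) and -0.15 (SE 0.129).

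Psmc2 had log2 signals of 11.50, 11.44, 11.52, 11.61 and 11.60 in the iron-deficient rats and of 11.64, 11.67, 11.64, 11.66 and 11.80 in the pair-fed rats. The groups did not overlap, and pair-fed replicate 5 stood above the other pair-fed rats. Its log2 fold change was -0.15 (SE 0.0605, adjusted limma p 0.673), and it was -0.12 without pair-fed replicate 5. Psmc1 had log2 signals of 9.90, 9.93, 9.89, 10.10 and 10.05 in the iron-deficient rats and of 10.12, 10.21, 10.05, 10.06 and 10.28 in the pair-fed rats. Iron-deficient replicate 4 lay within the pair-fed range, and the log2 fold change was -0.17 (SE 0.0694, adjusted limma p 0.673). The log2 fold changes of the other ATPases were -0.14 (Psmc3), -0.13 (Psmc5) and -0.08 (Psmc4).

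Among the 11 non-ATPase subunits of the regulatory particle, 8 had a lower and 3 a higher mean, with log2 fold changes from -0.19 to 0.06 and a median of -0.11. Psmd14, the enzyme that removes ubiquitin chains from substrates, had log2 signals of 10.08, 10.33, 10.03, 10.14 and 10.19 in the iron-deficient rats and of 10.38, 10.35, 10.32, 10.29 and 10.38 in the pair-fed rats. Iron-deficient replicate 2 lay within the pair-fed range and the other 4 lay below it. Its log2 fold change was -0.19 (SE 0.0662), with an unadjusted limma p of 0.0146 and an adjusted p of 0.635. The further probe sets of Psmd14 gave -0.41 (SE 0.114, unadjusted limma p 0.00335, adjusted 0.601) and -0.12 (SE 0.0696). Psmd7, the partner of Psmd14 in the complex, had a log2 fold change of -0.11 in its brightest probe set and -0.15 (SE 0.0630, adjusted limma p 0.681) in its other.

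Psmd11, a scaffold subunit of the lid, had log2 signals of 11.05, 11.16, 11.09, 11.24 and 11.19 in the iron-deficient rats and of 11.28, 11.35, 11.29, 11.25 and 11.48 in the pair-fed rats. The groups did not overlap, but iron-deficient replicate 4 and pair-fed replicate 4 lay next to each other. The mean was 11.15 ± 0.08 against 11.33 ± 0.09 (SD, n = 5 each), a log2 fold change of -0.19 (SE 0.0657, adjusted limma p 0.641). Its further probe sets gave -0.15 (SE 0.0770) and, at a dim signal, 0.14 (SE 0.0964).

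Psmd6, another lid subunit, had log2 signals of 10.09, 10.17, 10.12, 10.26 and 10.21 in the iron-deficient rats and of 10.31, 10.38, 10.34, 10.23 and 10.45 in the pair-fed rats. Only iron-deficient replicate 4 reached into the pair-fed range. Its log2 fold change was -0.17 (SE 0.0628, adjusted limma p 0.653). Psmd12, also of the lid, had log2 signals of 9.66, 9.86, 9.67, 9.86 and 9.75 in the iron-deficient rats and of 9.80, 9.95, 9.95, 9.85 and 10.03 in the pair-fed rats. The groups overlapped, and the log2 fold change was -0.16 (SE 0.0685, adjusted limma p 0.700). Among the other members, Psmd4, a receptor for ubiquitin chains, had a log2 fold change of -0.13, and Psmd13 and Psmd8 had -0.10 and -0.06. Psmd1 and Psmd2, the large subunits that dock ubiquitin-binding proteins, had 0.06 and 0.04, and Psmd3 had 0.01. The adjusted limma p of the 11 genes ranged from 0.635 to 0.986.

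The activators Psme1 and Psme2, which form the interferon-inducible cap, had nearly equal means in both diets. Psme1 had log2 signals of 11.31, 11.53, 11.50, 11.37 and 11.60 in the iron-deficient rats and of 11.61, 11.42, 11.45, 11.46 and 11.48 in the pair-fed rats. The groups overlapped, and the log2 fold change was -0.02 (SE 0.0702, 95% interval -0.18 to 0.13, adjusted limma p 0.968). Psme2 had log2 signals of 10.17, 10.69, 10.36, 10.36 and 10.67 in the iron-deficient rats and of 10.67, 10.45, 10.41, 10.48 and 10.36 in the pair-fed rats. The iron-deficient rats enclosed the pair-fed range, with replicate 1 lowest and replicate 2 highest. The log2 fold change was -0.02 (SE 0.104, 95% interval -0.25 to 0.20, adjusted limma p 0.978).

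Psmf1, an inhibitor of the core in the test tube, had log2 signals of 10.37, 10.38, 10.36, 10.32 and 10.35 in the iron-deficient rats and of 10.42, 10.44, 10.51, 10.38 and 10.55 in the pair-fed rats. The groups met at iron-deficient replicate 2 and pair-fed replicate 4, and the iron-deficient rats lay close together. Its log2 fold change was -0.10 (SE 0.0562, adjusted limma p 0.764). Psme4, the activator of the nucleus and of sperm development, had a log2 fold change of 0.06 (SE 0.0576, adjusted limma p 0.850).

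The role groups were set side by side without a test between them. The median log2 fold change was -0.13 for the 13 core subunits, -0.11 for the 21 cap subunits (base, non-ATPase, activators and inhibitor) and 0.13 for the immunoproteasome. A lower mean was found for 13 of 13 core subunits, 17 of 21 cap subunits and 0 of 3 immunoproteasome subunits, against 52.5% of all genes. At an unadjusted p under 0.05, 3, 7 and 0 of these genes were lower, against 4.94% of all genes. Genes read on the same arrays are not separate readings, so these counts are descriptions. With each array left out in turn, the medians kept their sign in every role group except the activators and inhibitor, whose median of -0.02 became 0.03 without iron-deficient replicate 1 and 0.02 without pair-fed replicate 1.

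Genes that work with the proteasome were counted from lists named by their function. Of 19 partner genes (among them shuttle factors, ubiquitin ligases, deubiquitinases, the segregase Vcp with its cofactors, an assembly factor and the regulatory particle subunits Adrm1 and Sem1) 0 passed the rank products, 14 had a lower mean and the median log2 fold change was -0.06. Over all genes 52.5% had a lower mean. Uchl5, a deubiquitinase of the regulatory particle, lay at 9.25 to 9.34 in the iron-deficient and 9.45 to 9.55 in the pair-fed rats (log2 fold change -0.19, SE 0.0534, adjusted limma p 0.601). Its groups did not overlap, which held in this direction for 1.18% of all genes. Txnl1, a thioredoxin-like protein of the regulatory particle, had -0.15, Zfand5 -0.17 and the shuttle factor Ubqln1 0.13. Of 9 genes for ubiquitin, its activation and the control of proteasome genes, 0 passed the rank products and the median was -0.00. Ddi2, the protease that activates the proteasome transcription factor Nfe2l1, had 0.29 (SE 0.0992, adjusted limma p 0.631), and Ngly1, which removes the sugar chains of Nfe2l1 before that step, had -0.15 (SE 0.0590, adjusted limma p 0.666). The ubiquitin-activating enzymes Uba6 and Uba1 had -0.20 and 0.10.

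Of 13 genes of class I antigen processing 0 passed the rank products and 0 had an unadjusted p under 0.05, with a median log2 fold change of 0.03. The peptide transporter genes Tap1 and Tap2 had 0.14 and 0.09, RT1-CE5 had -0.12 and the interferon receptor gene Ifngr2 had 0.10. Of 8 genes around the iron-linked ubiquitin ligase 0 passed the rank products, and the median was -0.06. A lower mean was found for 5 and a higher mean for 3, where 52.5% of all genes had a lower mean. Herc2, a ubiquitin ligase, lay at 7.97 to 8.10 in the iron-deficient and at 8.13 to 8.24 in the pair-fed rats (log2 fold change -0.14, SE 0.0550, adjusted limma p 0.666). Rbx1, Ncoa4 and Cul1 had -0.11, -0.17 and -0.07. Fbxl5 had 0.05 (SE 0.0723, adjusted limma p 0.921) and Ireb2 0.10 (SE 0.120, adjusted limma p 0.896).

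Markers of erythroid cells had lower means in the iron-deficient group, and 7 of the 12 listed symbols were measured. Of these 7 markers, 6 passed the rank products in the lower direction, against 0.76% of all genes, and the median log2 fold change was -0.74. The paper had already reported some of them, among them Hbb and Eraf (Ahsp here), as lower on these same arrays. The count is therefore not separate evidence. The log2 of their summed signal was 13.15 to 13.83 in the iron-deficient and 13.72 to 14.34 in the pair-fed rats. That sum, taken on the linear scale, rested mostly on Hbb. In pair-fed replicate 2 Hbb was at 14.23 against a sum of 14.34, and in iron-deficient replicate 1 at 13.39 against 13.47. Among the pair-fed rats, replicate 2, the lowest for Psmg3, had the highest sum (14.34), and replicate 1, the highest for Psmg3, had the lowest (13.72). Among the iron-deficient rats, replicate 4 was highest both for the sum (13.83) and for Psmg3 (8.25). The part of erythroid cells in the values of Psmg3 and of the other proteasome genes was not tested. For the 7 hepatocyte markers the log2 of the summed signal was 17.25 to 17.29 in the iron-deficient and 17.23 to 17.28 in the pair-fed rats, with a median log2 fold change of 0.00.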

How the data were processed

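A separate rat stands behind each array (Affymetrix Rat Genome, 5 arrays per diet). The authors deposited log2 signals of the robust multiarray average (RMA), which their methods say was calculated in R with Bioconductor. The number of arrays limits the precision. After 57 control probe sets were left out, 31042 were tested. By the platform annotation, whose symbols can be old, 20826 belong to 1 gene, 436 to several and 9780 to none. 0 columns were left out.

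Rank products used 25 pairs of arrays and 100 permutations within arrays (false discovery rate under 0.05; Python 3.11.15, numpy 2.4.6, pandas 2.3.3, scipy 1.17.1, matplotlib 3.10.9). The limma package (3.58.1, R 4.3.3) gave log2 fold changes, standard errors and p-values with empirical Bayes moderation, adjusted by the Benjamini-Hochberg method across the tested probe sets. Differences between paired subunits had exact 2-sided permutation tests, and correlations had permutation tests. Scripts were tested on simulated data. Values of every array are given for members past the rank products, with an unadjusted limma p under 0.05 or groups without overlap. They are also given for the largest change of each role, and for the catalytic and interferon-inducible subunits. From each other list up to 4 genes with the smallest p were named, and Fbxl5 and Ireb2 were added because the background names them. The members, lists and tests were chosen with earlier results of these data known. Alternatives were other scalings, filters, probe sets and tests, and each array left out.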

Additional observations from a re-analysis of the deposited data

Results flagged for a closer look

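In 3 of the 92 sets of 5 values checked (46 genes in each diet), a single rat lay far from the others of its group. Chance flags about 1 in 20 such sets. Psmg3 was low in pair-fed replicate 2, at 8.37 on the log2 scale, with the next value at 8.98. The gap made up 0.883 of the group's range. Psmc2 was high in pair-fed replicate 5, at 11.80 against a next value of 11.67, a gap of 0.831 of the range. Psme1 was high in pair-fed replicate 1, at 11.61 against 11.48, a gap of 0.713 of the range.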

How the results depend on the processing

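Over all probe sets, 94 were higher and 178 lower by the rank products. With dim probe sets left out these counts were 55 and 109, and by the rank sum 4 and 30; with each array left out they ranged from 47 (without iron-deficient replicates 2 or 3) to 95 and from 91 (without pair-fed replicate 2) to 188. The higher count was 53 without iron-deficient replicate 5, and the lower count 115 without it, 113 without pair-fed replicate 3 and 99 without pair-fed replicate 5. Probe sets at a limma adjusted p under 0.05 ranged from 0 to 1, with 1 without pair-fed replicate 2 or 4. With limma in place of the rank products, 0 proteasome genes were lower. By the rank sum, an alternative chosen after seeing the data for these genes, it was 1, as in the main test. The members lower at an unadjusted limma p ranged from 6 to 13 and those higher from 0 to 1 (Psmb9, without pair-fed replicate 1) with each array left out. The labels do not say whether the replicate numbers pair the rats. Same-numbered rats deviated with correlations of -0.04 to 0.09, and 1 of 5 iron-deficient rats correlated best with its own number. These values cannot decide the pairing, since rats with matched food intake need not deviate alike. With the replicate block, 10 members were lower at an unadjusted limma p under 0.05, against 13. The SDs without iron-deficient replicate 1 were also an alternative chosen after seeing the data. No result with a call reversed. The sign of the small differences of Psmb5, Psmb8, Psmb10, Psme1 and Psme2 depended on the setting, for example on leaving out an array. Differences as small as those of most members lay near or within the 95% intervals that 5 against 5 rats allow.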
